A study of Xenopus laevis with 13 samples.

Results

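Stages 15 and 20 of Xenopus laevis embryogenesis, both neurula stages, were compared on 2 of the 13 arrays of a developmental series that runs from the unfertilized egg to the stage 40 tadpole. The arrays were chosen by the sample titles, which give 1 array of whole embryos for each stage. Embryos of both stages had been dejellied, raised in dilute Steinberg's solution and staged after Nieuwkoop and Faber, and their total RNA was labeled with Cy3 for one-color hybridization. The labels give no treatment, strain or genotype and no number of embryos per sample. A separate description label names stage 12 for the stage 15 array and stage 15 for the stage 20 array, whereas the title, the source name and the stage characteristic of both samples agree, so the titles were followed. The description names another stage than the title for 8 of the 13 arrays, among them all from stage 12 to stage 40, so the arrays used below as earlier and later stages carry the same conflict. No replicate array was made of either stage, so no test was possible and every difference below is a difference between 2 libraries. The stage 15 array lay on slide 2 and the stage 20 array on slide 3, and an effect of the slide cannot be told apart from an effect of the stage.

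Neurulation is the period in which the frog embryo forms its central nervous system. The neural plate bends, its lateral folds rise and meet at the dorsal midline, and the closed neural tube sinks below the epidermis, while neural crest cells arise at the border of the plate and somites separate in the flanking mesoderm. In Xenopus, the neural plate is still open at stage 15 and the folds have met along the trunk by about stage 20. Xenopus laevis is an allotetraploid frog that carries L and S copies of many genes, and a probe may bind transcripts of both copies. The scanner output pairs probes with GenBank accessions and with no gene symbol, and none of the 28256 accessions (0 matched) was found in the RefSeq gene table used here. The named genes of neural plate, neural crest, muscle and other tissues could therefore not be followed, the labeled tissue could not be checked against marker genes, and no sequence is shown. The results describe probes and accessions.

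Both arrays were similar in brightness. The 75th percentile of the processed signal over 43803 non-control probes was 1142 at stage 15 and 1122 at stage 20, and 70.7% and 72.3% of the probes were well above background, the scanner software's call for a spot clearly brighter than its surroundings. No probe was saturated. All log2 values below are relative to the 75th percentile of the array. After this scaling, the 7 spike-in control probes, which bind RNA added during labeling, differed by -0.10 ± 0.077 (stage 20 minus stage 15, log2, SD over 7 probes). Among the 153 negative-control spots, the brightest had a signal of 23.3 at stage 15 and 316 at stage 20, and 2 spots on each array exceeded 3 times the median of these controls. Across probes, stage 15 correlated best with stage 20 (Pearson correlation 0.970), ahead of stage 12 (0.943), and stage 20 best with stage 25 (0.978).

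Over this interval, about as many probes were higher as lower at stage 20, and the larger differences were mostly increases. Of 32570 probes that passed the background call at stage 15, stage 20 or both and were not marked as non-uniform at either, 3083 (9.47%) were at least 2-fold higher at stage 20 and 2941 (9.03%) at least 2-fold lower, 18.5% in all. For a probe not well above background on 1 array, that side was raised to the dimmest signal among the probes of that array that passed the call, so that its difference is a lower limit. The median difference was 2.81-fold among the higher probes and 2.46-fold among the lower ones. At least 4-fold, 781 probes (2.40%) were higher and 309 (0.949%) lower. At least 8-fold, 227 were higher and 23 lower, and at least 16-fold, 58 were higher and 1 lower. The higher probes came from 2178 accessions and the lower probes from 2412.

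**Figure D1:**
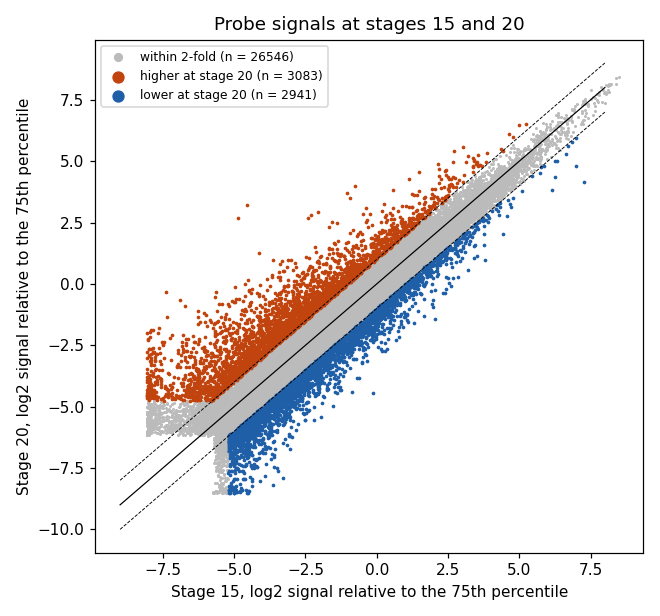
Signal of each tested probe at stage 15 (horizontal) and stage 20 (vertical), as log2 relative to the 75th percentile of the array, with 3083 probes higher at stage 20 in orange, 2941 lower in blue and 26546 within 2-fold in grey. Broken lines mark 2-fold, and grey points outside them at the dim edge are probes not well above background on 1 array, whose bounded difference was under 2-fold; the points farthest from the diagonal lie on the side of stage 20.

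Most of the changed probes were measured on both arrays. Of the higher probes, 2576 were well above background at both stages and 507 at stage 20 alone. Of the lower probes, 2475 were well above background at both stages and 466 at stage 15 alone. Among the 30051 probes well above background on both arrays, the median difference was -0.12 (log2, stage 20 minus stage 15), the quartiles were -0.52 and 0.34, and the 5th and 95th percentiles were -1.21 and 1.35. The scanner software gives an error for each processed signal, which had a median of 10.04% of the signal at stage 15 and 10.02% at stage 20. All 3083 higher and all 2941 lower probes differed by more than 2 combined scanner errors. With an error of this size, the choice of probes by a 2-fold difference largely fixed that outcome in advance. This error describes the reading of a spot and not the spread between batches of embryos, which is unknown here.

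Changes were more frequent among dim probes. When the tested probes were divided into 5 groups of 6514 by their mean over all 13 arrays, 15.9% of the dimmest group were higher and 13.2% lower at stage 20, against 8.89% and 9.41% in the middle group and 2.30% and 3.98% in the brightest. The SD of the difference was 1.06 (log2) in the dimmest group and 0.53 in the brightest. The part of readings near background in these counts was not tested. Position on the array moved with the counts less than brightness did. Over 10 blocks of rows the share of higher probes ranged from 8.30% to 10.65% and that of lower probes from 7.84% to 11.4%, and over 5 blocks of columns from 9.03% to 9.86% and from 8.57% to 9.91%.

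The interval from stage 15 to stage 20 was also set beside the neighboring intervals by the same rule. From stage 12 to stage 15, 5224 probes were at least 2-fold higher and 5557 lower (33.5% of those tested). From stage 20 to stage 25, 2582 were higher and 1559 lower (12.52%). Both of these intervals lie within 1 slide. Of the other intervals that cross slides, 2.12% of the tested probes changed from stage 8 to stage 9 and 9.10% from stage 35 to stage 40. From the egg to the 2-cell stage, within 1 slide, 42.5% changed, against 1.04% from the 2-cell to the 16-cell stage. The egg array, used below as the earliest level, thus stood apart from its neighbor. Its 75th percentile was 942, against 2008 at the 2-cell stage, and 59.0% of its probes were well above background, against 66.4%. Relative to the 75th percentile, the mean spike-in signal was 3.07 in the egg and 1.44 at the 2-cell stage (log2). The cause was not tested.

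The median of the probes higher at stage 20 was low in the egg and cleavage embryo, increased from stage 12 on and then stayed high. Their median level was -6.14 at the 2-cell stage, -6.20 at stage 9, -5.60 at stage 10.5, -5.04 at stage 12, -3.18 at stage 15 and then -1.40 at stage 20 (log2, dim values raised to the lowest well-above-background signal). It continued to -0.53 at stage 25 and was -0.30 at stage 40. In the egg the median was -5.42, which is the lowest well-above-background signal of that array. This bound differed between arrays, with -6.91 for 2-cell embryos, -6.42 for stage 9, -6.44 for stage 10.5 and -5.72 for stage 12. From the egg to stage 12, 43.6% to 57.4% of the set passed the background call. Medians before stage 15 therefore lay at or not far above a bound that varied, and its part in their differences was not tested. Of the 3083, 1345 (43.6%) were well above background in the egg, against 75.9% of all tested probes, and 1051 (34.1%) were so on all 13 arrays, against 69.3%. At the 2-cell stage 1708 (55.4%) were, against 83.1%. The set is thus mixed. The 1345 had a median of -2.01 in the egg, -2.88 at stage 12, -2.28 at stage 15 and -0.77 at stage 20. A further group of 884 (28.7%, against 6.13% of all tested probes) was not well above background on any array from the egg to stage 12, of which 322 (10.4% of the higher probes, against 2.43% of all tested) were first well above background at stage 20 and 562 at stage 15. At stage 20, 2066 of the higher probes (67.0%) were at least 2-fold above every array from the egg to stage 12, against 14.8% of all tested probes. The probes were chosen by their stage 15 and stage 20 signals. Shares that use either array, among them those of the 322 and the 2066, are therefore not independent of the choice. The highest of the 13 arrays was stage 40 for 1048 of them (34.0%, against 12.8% of all), stage 25 for 502 (16.3%, against 4.37%), stage 30 for 459 (14.9%, against 4.69%), stage 20 for 345 (11.2%, against 6.997%) and the egg for 312 (10.1%, against 27.5%).

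The probes lower at stage 20 had another history. Their median level was -2.57 in the egg and -2.11 at stage 9, increased to -1.50 at stage 10.5 and -1.36 at stage 12, and then decreased to -2.30 at stage 15, -3.79 at stage 20 and -4.24 at stage 25, after which it remained near that level and was -4.21 at stage 40. Of the 2941, 2170 (73.8%) were well above background in the egg, close to the 75.9% of all tested probes, and 2830 (96.2%) at stage 12, against 89.8%. This set is mixed too. The 2170 had a median of -1.22 in the egg, -1.01 at stage 9, -0.84 at stage 10.5 and -0.89 at stage 12. The other 771 were at -6.42 at stage 9, the lowest well-above-background signal of that array, then at -4.25 and -2.82. The highest of the 13 arrays was the egg for 790 (26.9%), close to the 27.5% of all tested probes, stage 12 for 669 (22.7%, against 10.9%) and stage 15 for 548 (18.6%, against 11.1%). A small group of 55 (1.87%, against 6.13% of all tested probes) was not well above background on any array from the egg to stage 12. At stage 20, 1264 (42.98%) were at least 2-fold below every array from the egg to stage 12, against 12.1% of all tested probes. These probes too were chosen by their stage 15 and stage 20 signals. The last share and that of stage 15 as the highest array are therefore not independent of the choice. A lower probe also had to be well above background at stage 15. The 791 tested probes first well above background at stage 20 could thus not be in this set, but they count among all tested probes. Comparisons of the 55, the 2170 and the 2830 with all tested probes are therefore affected by this filter.

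**Figure D2:**
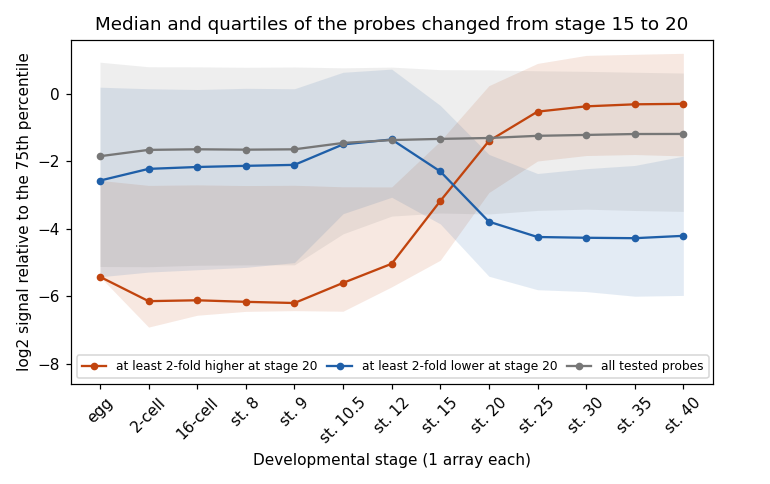
Median (points) and quartiles (shading) of the log2 signal relative to the 75th percentile over the 13 stages, 1 array each, for probes at least 2-fold higher at stage 20 (orange), at least 2-fold lower (blue) and all tested probes (grey). The orange median lies at -5.04 at stage 12 and -0.53 at stage 25, and the blue median at -1.36 and -4.24, whereas the grey one stays between -1.85 and -1.19 throughout; the change from stage 15 to 20 was used to choose both sets.

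How long these differences lasted was followed on the later arrays, with each stage set against stage 15. Because the stage 15 array also chose the probes, the counts are not independent of the choice, and the same share over all tested probes is given beside each. Of the 3083 higher probes, 2813 (91.2%) were still at least 2-fold above stage 15 at stage 25, 2610 (84.7%) were at stage 30, 2432 (78.9%) at stage 35, and 2307 (74.8%) by stage 40. Over all tested probes these shares were 16.2%, 19.4%, 20.2% and 21.7%. Of the 2941 lower probes, 2567 (87.3%) were still at least 2-fold below stage 15 at stage 25, 2299 (78.2%) were at stage 30, 2158 (73.4%) at stage 35, and 2078 (70.7%) by stage 40, against 18.2%, 23.2%, 25.6% and 30.6% of all tested probes. With scaling to the 75th percentile, the share thus declined with each later stage in both sets. Scaling to the spike-in probes moved the median difference of all tested probes from stage 15 to stage 40 from -0.35 to 0.94 (log2). Both sets were then called anew, with 3543 higher and 2419 lower probes. Of these, 3208 (90.5%) and 928 (38.4%) were held at stage 40, against 48.4% and 7.92% of all tested probes. How many higher and lower probes were held to stage 40 in absolute terms therefore depended on the scaling. Shares at stages 25 to 35 are not given for spike-in scaling.

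**Figure D3:**
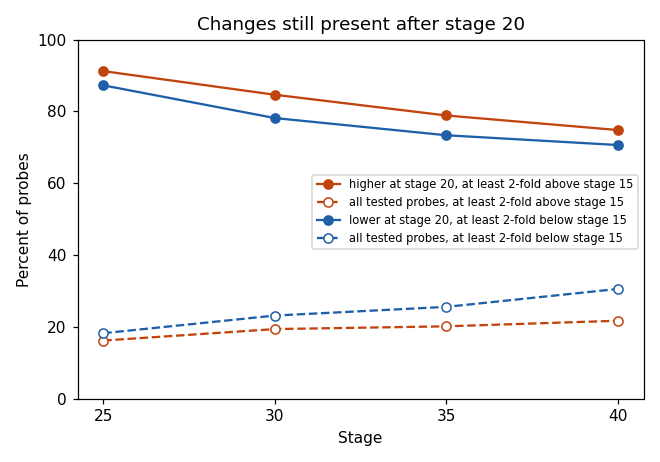
Percent of probes (vertical) at least 2-fold above or below their stage 15 level at stages 25, 30, 35 and 40 (horizontal), for the 3083 probes higher (orange, filled) and the 2941 lower (blue, filled) at stage 20, and for all 32570 tested probes (open, broken lines). The filled lines descend from 91.2% and 87.3% to 74.8% and 70.7%, and the open lines ascend to 21.7% and 30.6%.

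The later arrays were also set against stage 12, an array that took no part in the choice. A difference from stage 12 also includes the change from stage 12 to stage 15. Over that step the median went from -5.04 to -3.18 for the higher probes and from -1.36 to -2.30 for the lower ones. A probe could therefore pass the 2-fold limit without keeping its change after stage 15. The shares below thus cannot show how much of that later change lasted. At stage 25, 2833 of the higher probes (91.9%) were at least 2-fold above stage 12, against 24.3% of all tested probes, and 2547 of the lower probes (86.6%) at least 2-fold below it, against 28.5%. At stage 30 the shares were 90.6% against 25.2% for the higher probes and 84.1% against 30.0% for the lower ones, and at stage 35 they were 89.0% against 25.2% and 81.0% against 31.4%. At stage 40, 2660 of the higher probes (86.3%) were at least 2-fold above stage 12, against 25.4% of all tested probes, and 42 (1.36%) were at least 2-fold below it. Of the lower probes, 2293 (78.0%) were at least 2-fold below stage 12 at stage 40, against 34.0% of all, and 112 (3.81%) at least 2-fold above it. The median difference between stages 12 and 40 was 3.65 (log2) for the higher probes, -2.28 for the lower probes and -0.36 for all tested probes. All values against stage 12 use the 75th percentile. Relative to it, the mean spike-in signal was 2.37 at stage 12 and 0.96 at stage 40 (log2). Spike-in scaling would thus shift every difference between these stages upward, and the shares against stage 12 were not run with it.

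Individual courses after stage 20 differed. Of the higher probes, 2221 (72.0%) were held at every later stage and 218 (7.07%) at none, against 12.51% and 73.8% of all tested probes. Of the lower probes, 1879 (63.9%) were held at every later stage and 259 (8.81%) at none, against 13.3% and 64.1% of all. Between stage 20 and stage 40, 1406 of the higher probes (45.6%) were at least 2-fold higher still, 1167 (37.9%) remained within 2-fold and 510 (16.5%) were at least 2-fold lower. Of the lower probes, 547 (18.6%) were at least 2-fold higher at stage 40 than at stage 20, 1492 (50.7%) within 2-fold and 902 (30.7%) at least 2-fold lower. Over all tested probes, 18.5% were at least 2-fold higher, 59.0% within 2-fold and 22.5% at least 2-fold lower, so the share of lower probes that came back up was near that of all tested probes. The probes held at no later stage were chosen for a change that did not last, so the return of their medians follows from the choice. For the higher probes among them, the median was -1.59 at stage 15, -0.53 at stage 20, -1.08 at stage 25 and, by stage 40, -2.53. For the lower probes held at no later stage, the median was -3.07 at stage 15, -4.52 at stage 20, -3.52 at stage 25 and, by stage 40, -1.67.

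The share held is also given by the size of the difference. Of the 781 probes at least 4-fold higher at stage 20, 737 (94.4%) were at least 2-fold above stage 15 at stage 40, and of the 227 at least 8-fold higher, 225 (99.1%). Of the 309 probes at least 4-fold lower, 239 (77.3%) were at least 2-fold below stage 15 at stage 40, and of the 23 at least 8-fold lower, 18 (78.3%). A probe with a larger difference has more room before it passes the same 2-fold limit. With the limit set at 4-fold at both stage 20 and stage 40, 680 of the 781 higher probes (87.1%) and 215 of the 309 lower probes (69.6%) were held. Among all lower probes, 1477 of 2170 (68.1%) that were well above background in the egg were held at 2-fold, and 601 of 771 (77.95%) that were not. These subsets share the stage 15 array with the measure and are given as a description.

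Few readings stood apart at a single stage. At stage 20, 41 probes (0.121% of those tested) were at least 2-fold above and 70 (0.207%) at least 2-fold below both stage 15 and stage 25. For the stage 15 array, the same counts against stages 12 and 20 were 154 (0.460%) and 190 (0.568%). Over the other 9 arrays that have a neighbor on each side, these shares ranged from 0.040% to 0.993% for peaks and from 0.020% to 1.52% for dips. A set of 96 probes was well above background at both neurula stages and exceeded the other 11 arrays at least 2-fold at each of both. From stage 15 to stage 20 their median difference was -0.17 (log2), and 0 of them were higher and 4 lower by 2-fold. Over all tested probes the median difference was -0.10, and 9.47% were higher and 9.03% lower. The 96 were chosen by their values at both stages, so these counts are not independent of the choice.

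Many accessions were represented by more than 1 probe, which gave a second value of each difference within the same RNA samples. It is a separate reading only where the probes do not overlap in sequence, which is not given. Of 28256 accessions, 15217 had 2 probes and 165 had 3. For 10354 accessions exactly 2 probes were tested. Their differences between stages 15 and 20 were close: the median gap between both probes was 0.18 (log2), or 1.13-fold, and the correlation across accessions was 0.868 (Pearson) and 0.859 (Spearman), a description over probes that share 2 RNA samples. For the 9429 pairs with all 4 values well above background, the correlation was 0.896 and the SD of the gap 0.37, which corresponds to 0.26 (log2) for a single probe. The gap exceeded 2-fold in 231 of these pairs (2.45%). Among 2186 of these pairs in which both mean levels exceeded the 75th percentile, the corresponding SD for a single probe was 0.16 and the gap exceeded 2-fold in 9. The levels themselves agreed less than the differences, with a median gap of 0.80 (log2) in mean level over the 9429 pairs.

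**Figure D4:**
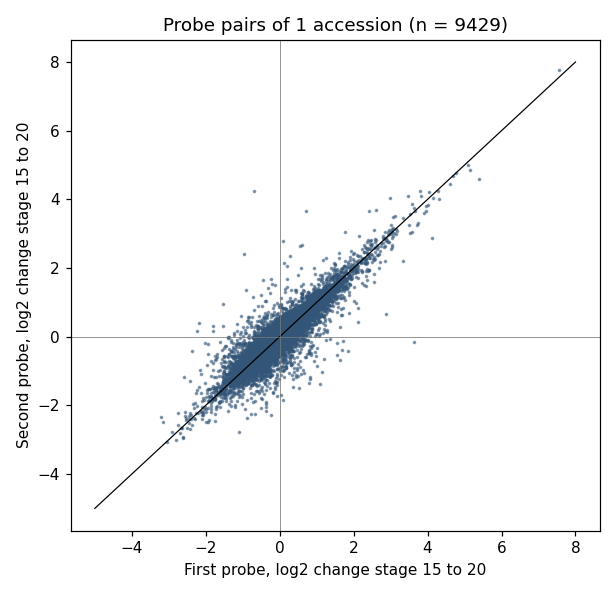
Difference between stages 15 and 20 (log2, positive where stage 20 is higher) for the first (horizontal) and second (vertical) probe of each of 9429 accessions with 2 probes and all 4 values well above background, with the line of equality. The pairs follow the line with a Pearson correlation of 0.896, and 231 of them lie more than 2-fold from it.

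Increases were shared by both probes of an accession more often than decreases. At least 1 probe was higher at stage 20 in 1360 of the 10354 pairs, and both were in 876 of these (64.4%). At least 1 was lower in 1151 pairs, and both were in 506 (43.96%). Only 4 pairs held 1 higher and 1 lower probe. In most other pairs the second probe differed less than 2-fold in the same direction. Of 2236 higher probes with a tested partner, 1752 (78.4%) had a partner that was also higher by 2-fold and 2197 (98.3%) a partner above 0, against 10.8% and 47.7% of all probes in these pairs. Of 1657 lower probes with a partner, 1012 (61.1%) had a partner lower by 2-fold and 1601 (96.6%) one below 0, against 8.00% and 52.3%. In both directions together, 71.0% of called probes had a partner called the same way.

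The share of partners past the 2-fold limit is given by the size of the difference, with which it rises in part by construction, since the limit is fixed. For probes 2-fold to 2.83-fold higher, 65.4% of partners were also at least 2-fold higher, for those 2.83-fold to 4-fold higher 89.7%, for those 4-fold to 8-fold higher 92.2%, and for the 172 at least 8-fold higher 98.3%. For lower probes the shares were 53.3%, 73.9% and 85.4% in the same ranges, and 6 of 6 beyond 8-fold. The share of partners on the same side of 0 was near its ceiling in every range, at 98.2%, 97.5%, 99.2% and 98.8% for higher probes and 96.4%, 96.4%, 98.7% and 6 of 6 for lower probes. The median partner of a probe at least 8-fold higher differed by 3.66 (log2), and that of a probe at least 8-fold lower by -2.65. The lower probes were concentrated near the limit, with a median of 2.46-fold. Of the 117 accessions with 3 tested probes, 38 had at least 1 changed probe, and in 21 of these all 3 probes changed in the same direction, in 10 exactly 2 of 3 did, and 1 held both directions.

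Persistence was also shared by both probes. Of the 876 accessions with both probes higher at stage 20, both were still at least 2-fold above stage 15 at stage 40 in 636 (72.6%), 1 was in 27 (3.08%) and neither in 213 (24.3%). Of the 506 with both probes lower, both were held in 333 (65.8%), 1 in 24 (4.74%) and neither in 149 (29.4%). Among all tested probes, counted singly, 21.7% were at least 2-fold above stage 15 at stage 40 and 30.6% at least 2-fold below it. How often both probes agree at stage 40 over all tested pairs is not given here, so the agreement is not shown to be particular to these sets. Whether the probes of an accession overlap in sequence is not given in the sources used here, and overlapping probes would not be separate readings of a transcript. The numbers that end the probe names lie close together for some accessions named below, among them those with the largest increase. What these numbers stand for is not given.

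The largest increase belonged to a single accession, whose 2 probes were the first and second of all tested probes. Probe Xl#S13589356_1622 had a processed signal of 48.3 ± 6.45 (scanner error) at stage 15 and 10372 ± 1037 at stage 20, a 219-fold difference between the 2 normalized values. Its partner Xl#S13589356_1582 had signals of 39.0 ± 6.79 and 7158 ± 716, a 187-fold difference. Neither probe was well above background on any of the 7 arrays from the egg to stage 12, and both were on the 6 arrays from stage 15 onward. In normalized log2 values, the first probe was at -4.56 at stage 15, 3.21 at stage 20, 4.49 at stage 25, 5.17 at stage 30, 5.26 at stage 35 and then 2.99 at stage 40. The second was at -4.87, 2.67, 4.08, 4.77, 4.72 and 2.17 at the same stages. Both probes thus switched from a signal just above background to one far above the 75th percentile within the interval, remained there through stage 35 and were lower again at stage 40, where they were still 188-fold and 131-fold above stage 15.

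The largest decrease was that of probe Xl#S16907201_1863, the only probe of its accession. Its signal was 1052 ± 105 at stage 15 and 51.04 ± 6.19 at stage 20, a 20.3-fold difference. It was well above background on all arrays from the egg to stage 20, between -1.38 and -0.83 from the egg to stage 9, then at 1.87 at stage 10.5, 2.68 at stage 12, -0.12 at stage 15 and finally -4.46 at stage 20. It was not well above background at stages 25 to 40, which places stage 40 at least 114-fold below stage 15. The decrease had begun after stage 12 and went on after stage 20, with stage 25 at least 77.5-fold below stage 15.

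The next largest decrease was that of probe Xl#S13590808_1516, whose accession has 3 probes. Its signal was 625 ± 62.7 at stage 15 and 52.6 ± 6.28 at stage 20, an 11.7-fold difference, and its partners Xl#S13590808_1476 and Xl#S13590808_1436 differed 10.9-fold and 10.2-fold. The first probe was high in the egg at 2.64, lay between 3.91 and 3.98 from the 2-cell stage to stage 9, highest at stage 10.5 with 4.79, then 3.86 at stage 12, -0.87 at stage 15 and -4.41 at stage 20. All 3 probes had lost most of their signal between stages 12 and 15, before the interval. None was well above background at stages 25, 30 and 35. At stage 40, 2 of the 3 were again well above background, at -5.20 and -5.59, 20.1-fold and 16.6-fold below stage 15.

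**Figure D5:**
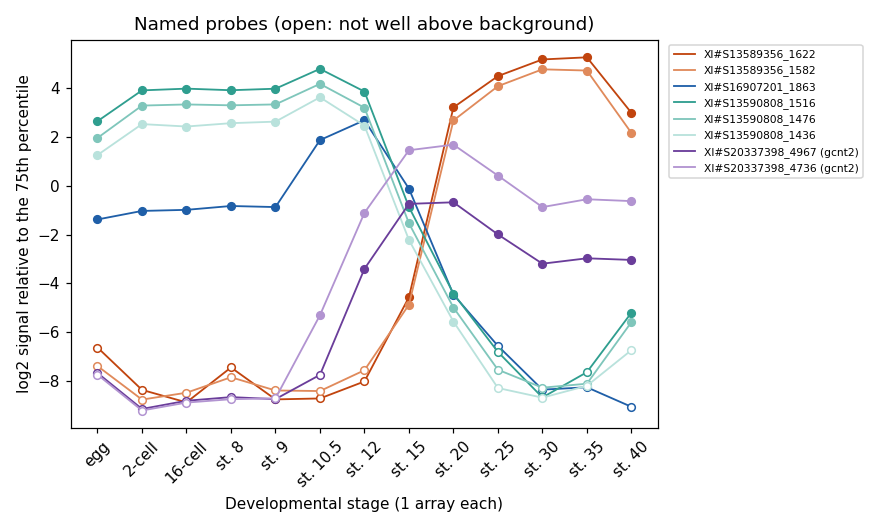
Normalized log2 signal (vertical) of the named probes on the 13 arrays (horizontal), with filled points where the probe was well above background and open points where it was not. The orange lines, both probes of the accession with the largest increase, pass from -4.56 and -4.87 at stage 15 to 3.21 and 2.67 at stage 20; the blue and green lines, the largest decreases, end below -4 at stage 20; and the purple lines, gcnt2, differ by 0.065 and 0.23 between these stages.

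The study lists genes of glycan synthesis, and for 27 of them, taken with their GenBank accessions, a probe of the same accession was sought. It was found for 2. That list marks all of them but gcnt2 as without a probe, so few matches could be had, although mgat5b matched probes by accession here. The paper itself shows array courses over these stages for fut1, abo, mgat1, galnt3, galnt7 and galnt11. Of these genes only abo was among the 27, and no probe of its accession was found. The courses the paper reports were therefore not followed here. For gcnt2, known in mammals for adding branches to poly-N-acetyllactosamine chains, probe Xl#S20337398_4967 had signals of 683 ± 68.4 at stage 15 and 702 ± 70.2 at stage 20, and probe Xl#S20337398_4736 had 3131 ± 313 and 3601 ± 360. The normalized values were -0.74 and -0.68 for the first probe and 1.46 and 1.68 for the second, differences of 0.065 and 0.23 (log2), or 0.16 and 0.32 with spike-in scaling. The spread between batches of embryos, against which these would have to be read, is unknown. Both probes were highest of all 13 arrays at stage 20. By stage 25 they were 2.38-fold and 2.05-fold below stage 15, and at stage 40 they were 4.91-fold and 4.24-fold below it. These later folds use the 75th percentile. Relative to it, the spike-in mean (log2) fell from 2.26 on the stage 15 array to 1.43 on the stage 25 array and 0.96 on the stage 40 array. Spike-in scaling would thus make these decreases smaller. It was not run on them, so a 2-fold decrease by stage 25 is not shown with that scaling. The 2 probes of mgat5b, a glycosyltransferase known in mammals for branching of O-mannosyl glycans, were not well above background at stage 15 or stage 20, and no fold difference is given.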

How the data were processed

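Total RNA of each stage was hybridized to an Agilent Frog 4×44k one-color array. The authors deposited the scanner output, in which Agilent Feature Extraction 10.7.3.1 gives the processed signal and its error as a linear, background-corrected intensity. The deposited series table held the same intensity (587860 of 587860 values identical).

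Of 45220 spots, 1417 were controls. Following the methods, signals were floored at 1 (0 values lay below it), divided by the 75th percentile over the 43803 other probes and converted to log2. Probes that passed the background call at either stage were kept, and 5 marked as non-uniform were left out. A probe counted as changed at 2-fold, with a dim side raised to the lowest well-above-background signal. With 1 array per stage no test was made, and the number of arrays limits the precision. Probes were named as the largest 2 increases and 2 decreases, with partners, plus glycogenes paired by accession. Probes were paired by accession. Comparisons were tested on simulated data, which checks the code and not the spread between embryos, slides or arrays.

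The comparison, lists and rules were chosen with earlier results of these data known. The gene lists could not be used, since 0 accessions matched. Python 3.11.15, numpy 2.4.6, pandas 2.3.3, matplotlib 3.10.9 and, for the normexp alternative, limma 3.58.1 in R 4.3.3 were used. Alternatives were scaling to the median, quantile, spike-in, normexp with an offset of 50, other filters, 4-fold and 1 mean value per accession.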

Additional observations from a re-analysis of the deposited data

How the results depend on the processing

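The counts of 3083 higher and 2941 lower probes were 781 and 309 at 4-fold and 2001 and 1332 with normexp; with no filter 4636 were lower. The share of changed probes that were higher, 51.2%, was 71.7% at 4-fold, 48.5% with median scaling, 59.4% with spike-in scaling, 60.04% with normexp, 52.6% with values as they stand and 46.0% with no filter. Of the higher probes, 74.8% were held at stage 40, against 87.1% at 4-fold, 71.1% with median scaling, 73.1% with quantile normalization, 90.5% with spike-in scaling, 71.6% with normexp, 71.8% where both arrays passed the background call and 76.7% with 1 mean per accession. Of the lower probes, 70.7% were held, against 76.8%, 76.4%, 38.4% and 73.6% with median, quantile, spike-in and normexp scaling, 63.05% with no filter and 68.9% with 1 mean per accession. The spike-in values differ by a constant for each array. Each alternative called its own higher and lower probes, so the shares held belong to sets that differ. The share of partners called the same way, 71.0%, was 56.1% with no filter and 72.5% where both arrays passed it. The causes of the other differences were not tested.

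The median difference of all tested probes from stage 15 to stage 20 (log2) was -0.10 with the 75th percentile, -0.13 with the median, -0.08 with quantile normalization and -0.005 with the spike-in probes. The 4 probes with the largest differences kept their direction under the 8 alternatives run on them, with 6.74 to 8.35 and 6.08 to 8.21 (log2) for the increases and -4.85 to -3.37 and -4.01 to -2.63 for the decreases. These probes were well above background on both arrays, so the alternatives in filter and bound could not change their values. The scaling alternatives use the same arrays, and the probes were picked as the most extreme, so a reversal was unlikely from the start. No paired analysis was possible because no stage has a second array or a replicate number. Medians of gene lists were not run, since no probe could be paired with the lists. Dim signal limits the difference of 507 higher and 466 lower probes, which is a lower limit.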

Other observations

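Probes designed to accessions with the prefix BC, which GenBank uses for full-length cDNA clones of a gene collection, differed in balance from the rest. Of 12001 tested BC probes, 1314 (10.9%) were at least 2-fold higher at stage 20 and 881 (7.34%) at least 2-fold lower. Of 20569 tested probes with other prefixes, 1769 (8.60%) were higher and 2060 (10.02%) lower. Of all BC probes 12001 of 13410 were tested, and of the others 20569 of 30393.

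A set of 132 probes was at least 2-fold lower at both stages 15 and 20 than on each of the other 11 arrays, on all of which it was well above background. The 96 probes at least 2-fold higher at both stages had to be well above background at stages 15 and 20 only. The filters differ, so the counts of 132 and 96 cannot be compared.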
